A study of Homo sapiens with 6 samples.

Results

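The mitochondrial ribosomal protein genes were described in H2087-LCC cells, as the rows of the expression table whose symbol is MRPL or MRPS followed by a number and at most 1 letter from A to C. The rule took 77 of the 21293 genes in the table, 50 with products in the large subunit, 26 in the small subunit, and MRPS36, which was named as a ribosomal protein and is now placed in the 2-oxoglutarate dehydrogenase complex. H2087-LCC is a latency competent cancer (LCC) cell population that was selected in mice from a human RAS-mutant lung adenocarcinoma cell line. RNA-seq of polyadenylated RNA was available for 3 groups of 2 libraries. The 3 treatments were SB505124 (SB), which blocks the kinase of the type I TGFβ receptor, given for 3 days, and TGFβ, given for 3 days or for 7 days. The study describes the 2 libraries of a group as technical replicates, so the standard errors and p-values measure the spread between these libraries and may leave out variation from culture to culture. SB was sampled at 3 days alone, so time in culture and TGFβ cannot be told apart in the 7-day comparisons, and the comparisons at 3 and 7 days share the same SB libraries. All values come from 1 cell population in culture.

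Mitochondrial ribosomes translate the few proteins that mitochondrial DNA encodes, which are core subunits of the respiratory chain and ATP synthase. Their RNA is made inside the organelle, but every protein subunit is encoded in the nucleus, made by cytosolic ribosomes and imported. Many subunits have a counterpart in bacterial ribosomes, and others exist only in mitochondrial ribosomes, where they replace shortened RNA or form new surfaces.

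Normalized counts, which are read counts divided by a factor for each library, summed to between 34306300 and 36340700 per library. The mitochondrial ribosomal protein genes took 0.540% and 0.495% of this sum in the SB libraries, 0.466% and 0.462% after 3 days of TGFβ, and 0.372% and 0.376% after 7 days. Shares of this kind describe the makeup of the RNA, so less RNA from these genes per cell and more RNA from other genes cannot be told apart. The epithelial keratin genes KRT8 and KRT18 had at least 31757 normalized counts in every library, and the leukocyte gene PTPRC, the erythroid gene HBB and the fibroblast genes DCN and LUM had at most 4. CDH1, which encodes E-cadherin, had 371 and 635 normalized counts in SB, then 28 and 24 at 3 days, then 10 and 9 at 7 days.

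Differences between groups were tested with limma on log2(normalized count + 1) over 14395 genes whose mean was at least 10, and a gene was called changed at a Benjamini-Hochberg adjusted p under 0.05. Of the 77 genes, 76 passed this filter on low values. The exception was MRPS24, with 0 and 6 normalized counts in SB, 1 and 1 at 3 days, and 1 and 0 at 7 days. In the GENCODE annotation on GRCh37, 90.9% of the MRPS24 exon bases lie in exons of the readthrough gene URGCP-MRPS24 on the same strand. Whether the annotation used for counting held this gene is not known. MRPS5, with 97.1% of its exon bases shared with a readthrough gene, had 5471 and 4970 normalized counts in SB. Why the MRPS24 row is nearly empty was not tested. No statement about the level of MRPS24 follows from its row.

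After 7 days of TGFβ, 61 of the 76 tested genes had fallen relative to SB and none had risen. Over all genes tested, 26.9% were called lower and 27.7% higher in this comparison (54.5% in either direction), against 80.3% of the mitochondrial ribosomal protein genes called lower. For the count of 0 called higher by limma, the count at an unadjusted p under 0.05 was also 0, and 2 genes were called higher once GC content and transcript length had been corrected for. The median log2 fold change of the 76 genes was -0.41, beside 0.00 over all genes tested, and the single values ran from -1.21 for MRPL4 to 0.15 for MRPS14. Most falls were moderate. A log2 fold change below -0.5 was found for 28 genes and below -1 for 3. Both 7-day libraries lay below both SB libraries for 73 of the 77 genes, beside 38.6% of all genes tested. In the GC and length correction the median was -0.28, and 52 of the 61 calls were kept.

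**Figure D1:**
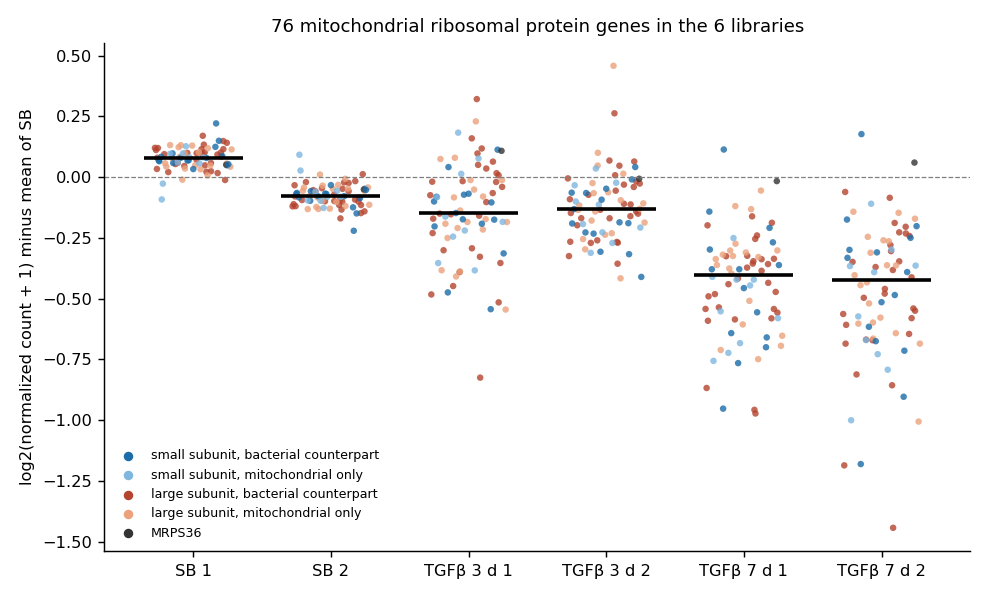
Each point is 1 of the 76 tested mitochondrial ribosomal protein genes in 1 library, as log2(normalized count + 1) minus the mean of the SB libraries for that gene, coloured by subunit and by whether the protein has a bacterial counterpart; black bars are medians over genes. The medians are 0.08 and -0.08 in SB, -0.15 and -0.13 at 3 days, and -0.40 and -0.42 at 7 days, and nearly all 7-day points lie below 0.

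After 3 days the picture was mixed. TGFβ changed 9 of the 76 genes relative to SB, where 29.0% of all genes tested were called. MRPL52 and MRPL15 rose (14.9% of all genes tested were called higher), and MRPL12, MRPS6, MRPL28, MRPS2, MRPL36, MRPL39 and MRPS27 fell (14.0% of all genes were called lower). The median log2 fold change was -0.14, beside -0.02 over all genes tested, with single values from -0.55 to 0.34. At an unadjusted p under 0.05, 2 genes were higher and 18 lower. The 3-day result depended on single SB libraries. The first SB library lay above the second for 72 of the 77 genes, with a median log2 ratio of 0.16 beside 0.01 over all genes tested, so that the 3-day median was -0.04 with the second SB library alone and -0.23 with the first alone, and 0 and 11 genes were called lower.

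Between 3 and 7 days of TGFβ, 44 of the 76 genes fell and none rose. Over all genes tested, 16.2% were called lower and 17.0% higher (33.2% in either direction), against 57.9% of the mitochondrial ribosomal protein genes called lower. By limma 0 genes were also higher at an unadjusted p under 0.05, and 2 were called higher after the GC and length correction. The median log2 fold change was -0.31, beside 0.02 over all genes tested, and the range was -0.72 to 0.16. Both 7-day libraries lay below both 3-day libraries for 65 of the 77 genes, beside 32.9% of all genes tested. The count of falls was the least stable of the 7-day results, since it was between 17 and 29 when any 1 of the 3-day or 7-day libraries was left out, and each of these 4 libraries had this effect.

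Over the 3 groups, mean normalized counts fell stepwise from SB to 3 days to 7 days for 62 of the 77 genes. This count includes the near-empty row of MRPS24, and the share of all genes with such means was not computed. For 33 of the 77 genes the steps did not overlap, with both 3-day libraries below both SB libraries and both 7-day libraries below both 3-day libraries. That pattern was seen in 14.5% of all genes tested. MRPL12, MRPL36, MRPL39, MRPS2 and MRPS27 were called lower in all 3 comparisons. With the GC and length correction, MRPL12 was not called at 3 days (limma adjusted p = 0.0706). The falls of MRPL36 and MRPL39 between 3 and 7 days were also not called with it (limma adjusted p = 0.138 and 0.0531). Without the correction, 12 genes were called in no comparison. Shares of all genes tested with these patterns were not computed.

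**Figure D2:**
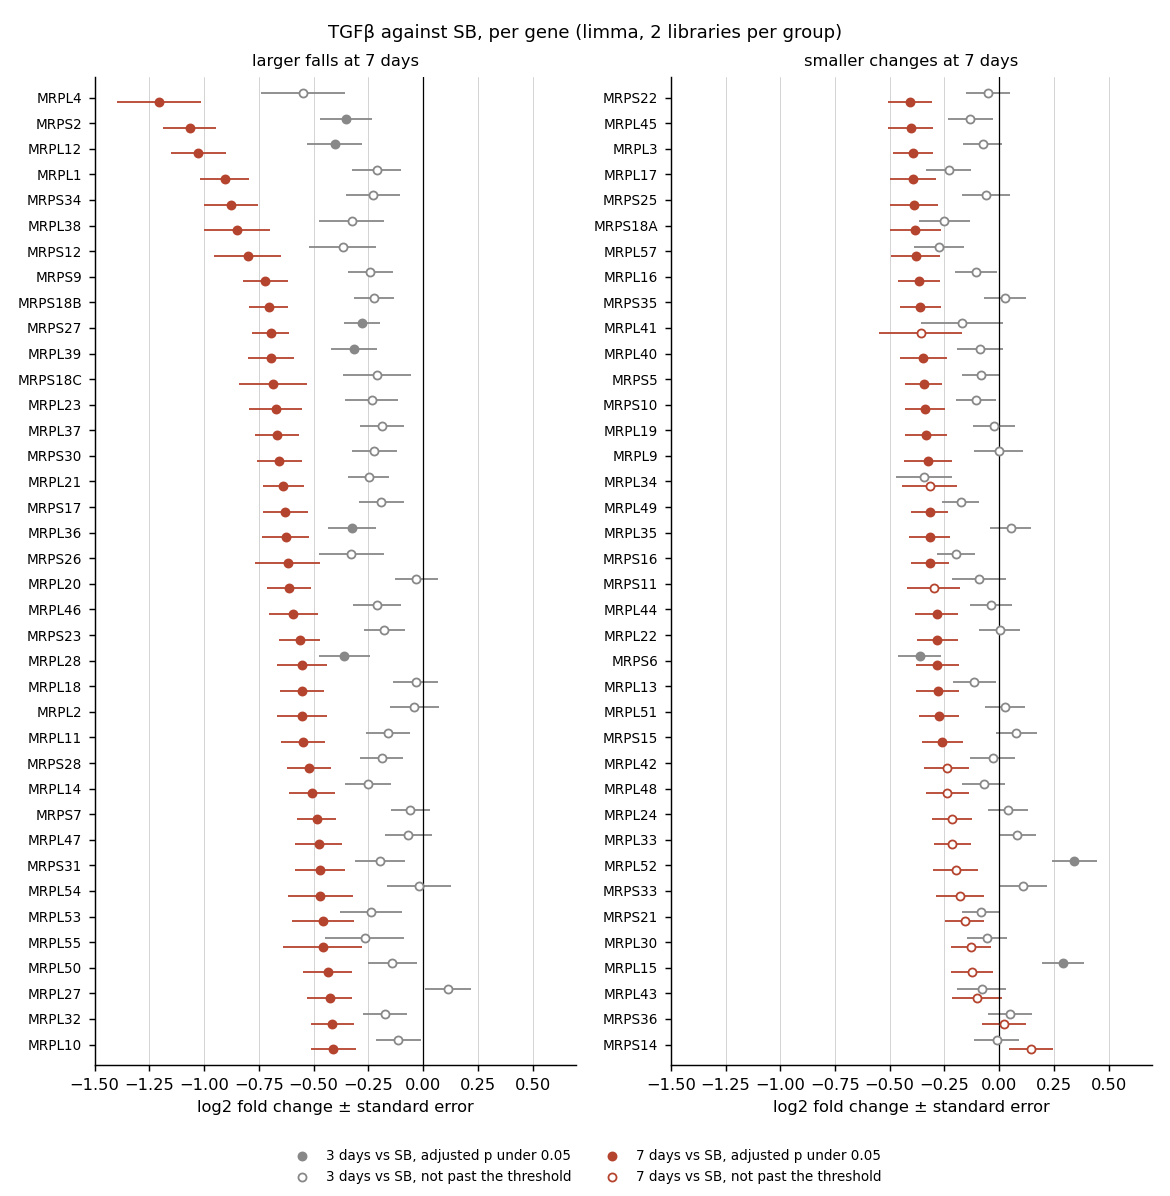
Log2 fold change against SB for each of the 76 tested genes after 3 days (grey) and 7 days (red) of TGFβ, with bars of 1 standard error from limma; filled circles have an adjusted p under 0.05. Genes are ordered by the 7-day value, from -1.21 for MRPL4 to 0.15 for MRPS14; 61 of the red circles are filled, all of them left of 0, and 9 of the grey ones.

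Among the small subunit proteins, 21 of 25 tested genes fell by 7 days relative to SB (median log2 fold change -0.47). MRPS2, the counterpart of bacterial ribosomal protein S2, is encoded at chr9:138391830-138396519 (GRCh37, forward strand). Its normalized counts were 2676 and 2338 in SB, 1800 and 2136 at 3 days, and 1292 and 1103 at 7 days. The 3 groups did not overlap, and the means dropped at both steps. The log2 fold change in limma was -0.35 ± 0.12 (SE, n = 2 per group) after 3 days of TGFβ (adjusted p = 0.046), -1.07 ± 0.12 at 7 days (adjusted p = 1.74e-05) and -0.72 ± 0.12 between them (adjusted p = 0.00122).

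MRPS34, a small subunit protein without a bacterial counterpart, is encoded at chr16:1821891-1823151 (GRCh37, reverse strand). In the annotation, 32.6% of its exon bases lie opposite a gene on the other strand, and the library kit does not mark strand. Normalized counts of MRPS34 were 1287 and 1336 in SB, 1026 and 1223 with 3 days of TGFβ, and 776 and 655 at 7 days. Again the groups were ordered without overlap, but only the 7-day libraries passed the test, with a log2 fold change of -0.88 ± 0.12 against SB (limma adjusted p = 9.75e-05), beside -0.23 ± 0.12 at 3 days (adjusted p = 0.193). MRPS27, a pentatricopeptide repeat protein that binds RNA, was the most highly counted gene of the small subunit, with 7545 and 6942 normalized counts in SB, 6107 and 5831 at 3 days, and 4384 and 4547 at 7 days. MRPS27 fell at each step without overlap (log2 fold change -0.70 ± 0.08 at 7 days, limma adjusted p = 2.74e-05).

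MRPS6 and MRPS14 took another course. MRPS6, the counterpart of bacterial S6, had normalized counts of 2248 and 2089 in SB, 1743 and 1630 at 3 days, and 1686 and 1884 at 7 days. The fall was present by 3 days (log2 fold change -0.36 ± 0.10, limma adjusted p = 0.0168) and the 7-day libraries overlapped the 3-day libraries, with a difference of 0.08 and a 95% interval from -0.14 to 0.30. With the GC and length correction MRPS6 was instead called higher between 3 and 7 days (0.23, limma adjusted p = 0.014), and its 7-day value against SB was -0.05 and not called (adjusted p = 0.47), beside -0.28 without the correction (adjusted p = 0.0299). MRPS14, the counterpart of bacterial S14, had 1220 and 1126 normalized counts in SB, 1206 and 1120 at 3 days, and 1268 and 1325 at 7 days. The 2 highest values were those of the 7-day libraries, by a margin that did not pass the test (log2 fold change 0.15 against SB, 95% interval -0.08 to 0.37, limma adjusted p = 0.247). After the GC and length correction the same difference was 0.27, with an adjusted p of 0.00509.

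The MRPS18 genes encode 3 related proteins, of which MRPS18C is the counterpart of bacterial S18, MRPS18B is a small subunit protein, and MRPS18A sits in the large subunit despite its symbol. For MRPS18B the normalized counts were 3831 and 3420 in SB, 3108 and 3092 at 3 days, and 2254 and 2184 at 7 days. MRPS18C was at 693 and 510, 553 and 477, and 376 and 362, and MRPS18A at 1156 and 1089, 860 and 1035, and 873 and 848. All 3 fell by 7 days relative to SB, by log2 fold changes of -0.71 ± 0.09, -0.69 ± 0.16 and -0.38 ± 0.12 (limma adjusted p = 4.59e-05, 0.00282 and 0.0148). MRPS18B and MRPS18C also fell between 3 and 7 days, whereas the MRPS18A libraries of the 2 time points overlapped. The later fall of MRPS18C was lost in 6 of the 15 alternatives run, 3 of which left out a library, and the 7-day call of MRPS18A in 3, without the first SB library or either 7-day library (adjusted p = 0.0577 to 0.0889). In the annotation, 83.6% of the MRPS18C exon bases and 60.6% of those of MRPS18A lie opposite a gene on the other strand, and the library kit does not mark strand.

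Among the large subunit proteins, 40 of 50 genes fell by 7 days (median log2 fold change -0.41). MRPL4, the counterpart of bacterial L4, a protein that lines the exit tunnel for the nascent chain, is encoded at chr19:10362577-10370731 (GRCh37, forward strand). MRPL4 had 772 and 722 normalized counts in SB, 421 and 619 at 3 days, and 380 and 274 at 7 days. It had the largest fall at 7 days of the 76 genes, -1.21 ± 0.19 on the log2 scale (limma adjusted p = 0.000243), although its libraries differed more within a group than those of most members. At 3 days the value of -0.55 ± 0.19 just missed the threshold (adjusted p = 0.0511). In the annotation, 39.7% of the MRPL4 exon bases lie opposite genes on the other strand, and the library kit does not mark strand.

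MRPL12 forms the flexible stalk that recruits translation factors, and is encoded at chr17:79670397-79674547 (GRCh37, forward strand). Its normalized counts were 2179 and 1867 in SB, 1443 and 1610 at 3 days, and 1105 and 886 at 7 days. The groups were ordered without overlap, and MRPL12 was called lower at 3 days (-0.40 ± 0.13, limma adjusted p = 0.0323), at 7 days (-1.03 ± 0.13, adjusted p = 3.6e-05) and between them (-0.62 ± 0.13, adjusted p = 0.00346). In the annotation, 69.5% of its exon bases are shared with a readthrough gene on the same strand. MRPL1, the protein of the other stalk, which lies beside the exit site for transfer RNA, is encoded at chr4:78783984-78873939 (GRCh37, forward strand). MRPL1 had 2289 and 1902 normalized counts in SB, 1869 and 1734 at 3 days, and 1074 and 1152 at 7 days. The drop in MRPL1 was placed mostly after day 3, with -0.21 ± 0.11 at 3 days (adjusted p = 0.173) and -0.69 ± 0.11 between 3 and 7 days (adjusted p = 0.000891).

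MRPL38, a protein of the central protuberance without a bacterial counterpart, had 1389 and 1309 normalized counts in SB, 924 and 1251 at 3 days, and 833 and 671 at 7 days. The fall at 7 days was -0.85 ± 0.15 (limma adjusted p = 0.000508), and 94.3% of its exon bases are shared with a readthrough gene. MRPL20, the counterpart of bacterial L20, an early assembly protein, showed almost no difference between SB (2213 and 1924) and 3 days (2035 and 2006) before lower values at 7 days (1379 and 1319). The log2 fold change of MRPL20 came to -0.03 ± 0.10 at 3 days (limma adjusted p = 0.852) and -0.58 ± 0.10 between 3 and 7 days (adjusted p = 0.00133).

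The 3 members with the highest mean were MRPL3, MRPS27 and MRPL47. MRPL3, the counterpart of bacterial L3, had 12356 and 10764 normalized counts in SB, 11400 and 10506 at 3 days, and 8637 and 8924 at 7 days, and MRPL47, the counterpart of bacterial L29, had 6637 and 5404, 6020 and 5428, and 4111 and 4500. Both overlapped with SB at 3 days and fell by 7 days (-0.39 ± 0.09 and -0.48 ± 0.11, limma adjusted p = 0.00281 and 0.00266). The lowest means besides MRPS24 were those of MRPL55, the counterpart of bacterial L31, and MRPL41, which is mitochondrial only. MRPL55 had 420 and 358 normalized counts in SB, 271 and 383 at 3 days, and 307 and 259 at 7 days (-0.46 ± 0.18 at 7 days, adjusted p = 0.0487). This call of MRPL55 was lost in 7 of the 15 alternatives run, among them the GC and length correction (-0.25, adjusted p = 0.109) and leaving out the first SB library (-0.34, adjusted p = 0.222) or either 7-day library (-0.58 and -0.34, adjusted p = 0.0587 and 0.267). MRPL41 had 464 and 405, 331 and 448, and 399 and 286 (-0.36 ± 0.19, adjusted p = 0.126), so that the 7-day libraries of this gene lay below the SB libraries but did not pass the test.

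MRPL52 and MRPL15 were the only members called higher in any comparison, and both were called in opposite directions in 2 comparisons. MRPL52, a large subunit protein without a bacterial counterpart, had 2075 and 1985 normalized counts in SB, 2379 and 2788 at 3 days, and 1852 and 1690 at 7 days. MRPL15, the counterpart of bacterial L15, had 4343 and 3704 in SB, 5010 and 4811 at 3 days, and 3586 and 3781 at 7 days. For both genes the 3-day libraries were the highest, with no overlap with either other group. MRPL52 rose by 0.34 ± 0.10 at 3 days (limma adjusted p = 0.0269) and fell between 3 and 7 days (-0.54 ± 0.10, adjusted p = 0.00248), and MRPL15 rose by 0.29 ± 0.09 (adjusted p = 0.0375) and then fell (-0.41 ± 0.09, adjusted p = 0.00654). Of the 15 alternatives run, the 3-day call was lost in 5 for MRPL52 and in 8 for MRPL15. Neither rise was called without the filter on low values, with equal library totals or without the trend. The same held when the first SB library alone stood for SB.

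The remaining falls at 3 days were of similar size. The 3-day call was lost in 4 of the 15 alternatives run for MRPL28, and in 8 each for MRPL36 and MRPL39. MRPL28 and MRPL36, with bacterial counterparts, and MRPL39, without one, had log2 fold changes of -0.36, -0.33 and -0.32 at 3 days (limma adjusted p = 0.0348, 0.0412 and 0.0403) and of -0.55, -0.63 and -0.70 at 7 days. For MRPL39 the normalized counts were 1732 and 1715 in SB, 1484 and 1291 at 3 days, and 1025 and 1104 at 7 days, in 3 groups that did not overlap. MRPL28 had 1605 and 1479, 1129 and 1277, and 1135 and 969, with the 2 TGFβ groups overlapping, and MRPL36 had 1156 and 1085, 854 and 935, and 746 and 703. MRPS36, the member that is not a ribosomal protein, had 1255 and 1170 in SB, 1306 and 1206 at 3 days, and 1198 and 1263 at 7 days. Its groups overlapped in every comparison, and its 7-day log2 fold change was 0.02 with a 95% interval from -0.20 to 0.24.

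The falls were spread over the classes of protein. By 7 days, 12 of 15 tested small subunit genes with a bacterial counterpart were called lower (median log2 fold change -0.34), as were 9 of 10 that are mitochondrial only (-0.52). In the large subunit, 25 of 30 genes with a counterpart (-0.42) and 15 of 20 without one (-0.38) were called lower. At 3 days the falls numbered 2, 1, 3 and 1 in the same order, and between 3 and 7 days 9, 7, 20 and 8. Over all genes tested, 26.9% were called lower at 7 days against SB, 14.0% at 3 days and 16.2% between 3 and 7 days. Differences between the classes were not tested. Levels were also taken per kilobase of the transcript that GENCODE tags as canonical for each gene. On this scale the mean level in SB had a median of 1423 normalized counts over the 25 small subunit genes. Over the 50 large subunit genes the median was 1494, and MRPL3 was highest at 6768. Across the 76 genes, Pearson's r of this level on the log2 scale with the 7-day log2 fold change was -0.04, a description over genes that share the same 6 libraries.

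The promoters of these genes are known for binding sites of the nuclear respiratory factors NRF1 and GABP, an ETS factor, and for a YY1 site close to the start. Promoter sequences from RefSeq (GRCh38.p14, 250 bases before to 50 after the start) matched 68 of the 77 genes. The letters searched, on both strands, were CCGGAAG for ETS/GABP, AAGATGGCG for YY1, GCATGCGC for NRF1, GGGCGG for SP1, CACGTG for the E-box, GTCTAGAC for the SMAD palindrome and TATAAA for the TATA box. None of these letter strings contains another. ETS/GABP letters stood in 41.2% of the 68 promoters, beside 10.7% of all 27305 promoters of the same length and 18.3% of those of the 10355 tested genes with a promoter. For YY1 the shares were 19.1%, 1.85% and 3.85%, and for NRF1 8.82%, 3.27% and 5.32%. SP1 letters (60.3%, 44.6% and 68.7%) and the E-box (8.82%, 7.43% and 10.1%) stood closer to the tested genes, the TATA box was in 2.94% against 12% and 5.92%, and the SMAD palindrome was in 0 of the 68 promoters (0.201% of all). Matches are a description of the letters and do not show that a factor binds.

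Promoters of 6 members are shown from 150 bases before to 30 after the start, on the strand of the gene, with whole matches to the ETS/GABP, YY1 and NRF1 letters in capitals. MRPS34, MRPL38 and MRPS18B fell at 7 days and hold matches, MRPL52 rose at 3 days and also holds them, and MRPL4, with the largest fall, and MRPS14, with no fall, hold none; they were picked after their values and matches were seen. A further match in MRPL38, MRPL52 and MRPS18B lies outside the printed stretch or runs past its end.
MRPS34 (chr16:1773105-1773284, reverse strand, with 3 ETS/GABP matches on the strand opposite the gene): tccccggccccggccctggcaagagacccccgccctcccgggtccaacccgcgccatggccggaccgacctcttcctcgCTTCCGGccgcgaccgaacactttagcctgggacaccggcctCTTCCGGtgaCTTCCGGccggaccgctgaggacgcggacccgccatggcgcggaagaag
MRPL38 (chr17:75904855-75905034, reverse strand, with YY1 letters just after the start): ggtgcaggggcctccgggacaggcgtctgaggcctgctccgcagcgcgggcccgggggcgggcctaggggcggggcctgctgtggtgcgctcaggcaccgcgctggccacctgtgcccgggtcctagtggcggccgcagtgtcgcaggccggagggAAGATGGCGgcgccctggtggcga
MRPS18B (chr6:30617690-30617869, forward strand, with NRF1 letters before the start): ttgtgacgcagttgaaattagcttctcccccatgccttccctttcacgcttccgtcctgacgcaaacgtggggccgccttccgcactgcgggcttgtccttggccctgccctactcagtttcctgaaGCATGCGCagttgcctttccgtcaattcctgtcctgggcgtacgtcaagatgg
MRPL52 (chr14:22829737-22829916, forward strand, with YY1 letters at 2 places and ETS/GABP letters at the start): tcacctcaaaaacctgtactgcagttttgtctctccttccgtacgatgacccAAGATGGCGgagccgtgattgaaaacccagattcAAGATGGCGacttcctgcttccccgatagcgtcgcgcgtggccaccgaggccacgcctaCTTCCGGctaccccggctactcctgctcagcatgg
MRPL4 (chr19:10251801-10251980, forward strand, without matches): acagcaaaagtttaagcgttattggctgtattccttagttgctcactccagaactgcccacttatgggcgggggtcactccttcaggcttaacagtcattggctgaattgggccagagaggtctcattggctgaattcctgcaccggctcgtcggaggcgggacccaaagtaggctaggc
MRPS14 (chr1:175023396-175023575, reverse strand, without matches): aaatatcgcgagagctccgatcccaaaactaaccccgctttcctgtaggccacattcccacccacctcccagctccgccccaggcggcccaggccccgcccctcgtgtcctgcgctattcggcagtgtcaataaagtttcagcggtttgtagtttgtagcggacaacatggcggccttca

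The median log2 fold change at 7 days was -0.40 over the 28 tested genes with ETS/GABP letters and -0.42 over the 39 without, and -0.43 over the 12 with YY1 letters and -0.40 over the 55 without. For the 6 genes with NRF1 letters it was -0.40, beside -0.41 over the other 61. For the 6 with the E-box it was -0.52, beside -0.41 over the other 61. All 6 with the E-box were called lower, as were 48 of the other 61. For NRF1 letters, 5 of 6 with them and 49 of 61 without were called lower. These counts stand beside 80.3% of all tested members and 26.9% of all genes tested. Differences between genes with and without the letters were not tested. The RNA of the factors themselves moved little or fell. NRF1 fell by 7 days (log2 fold change -0.33 ± 0.12, limma adjusted p = 0.0355), as did GABPB1, the partner subunit of GABP (-0.32 ± 0.12, adjusted p = 0.0408), whereas GABPA, which binds the DNA, was at 0.19 ± 0.10 (adjusted p = 0.129) and YY1 at 0.08 ± 0.09 (adjusted p = 0.449).

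Of 9 further regulators of mitochondrial biogenesis tested, 4 fell by 7 days relative to SB and 2 rose, beside 54.5% of all genes tested called in either direction. PPARGC1A, the coactivator PGC-1α, had 211 and 205 normalized counts in SB, 48 and 25 at 3 days, and 14 and 20 at 7 days, with no overlap between any of the groups (log2 fold change -3.56 ± 0.32 at 7 days, limma adjusted p = 2.59e-06). PPARGC1B had 661 and 661 in SB, 830 and 893 at 3 days, and 736 and 744 at 7 days. It was called higher at 3 days (0.38 ± 0.11, limma adjusted p = 0.0202), as were 14.9% of all genes tested. MYC, which drives many genes of ribosome biogenesis, had 16285 and 13846 in SB, 14016 and 14898 at 3 days, and 6907 and 6614 at 7 days, so that its SB and 3-day libraries overlapped and its fall followed day 3 (-1.10 ± 0.09 between 3 and 7 days, adjusted p = 1.44e-05). ESRRA, the oestrogen-related receptor that works with PGC-1α, had 478 and 513, 295 and 394, and 281 and 226 (-0.97 ± 0.17 at 7 days, adjusted p = 0.000465). The gene for the lysosomal regulator TFEB went the other way, from 8 and 18 in SB and 18 and 49 at 3 days to 206 and 169 at 7 days (3.84 ± 0.45, adjusted p = 2.24e-05). CREB1 rose by 0.33 ± 0.11 at 7 days (adjusted p = 0.0195).

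Genes around the mitochondrial ribosome were lower as well, where 26.9% of all genes tested were called lower at 7 days against SB. Of 6 tested subunits whose symbols do not begin with MRP, 5 fell by 7 days, namely DAP3, PTCD3, AURKAIP1, ICT1 and GADD45GIP1. ICT1, a peptidyl-tRNA hydrolase built into the large subunit, had 1288 and 1151 normalized counts in SB, 1118 and 1044 at 3 days, and 752 and 737 at 7 days (log2 fold change -0.71 ± 0.11 at 7 days, limma adjusted p = 0.000166). CHCHD1, a small subunit protein, was the exception at -0.16 ± 0.10 (adjusted p = 0.202). Of 26 assembly factors, 16 fell and none rose, with the largest falls in FTSJ2, a methyltransferase of the large ribosomal RNA (-0.81 ± 0.09, adjusted p = 1.36e-05), MRM1, another such methyltransferase (-0.79 ± 0.17, adjusted p = 0.00238), and DDX28, a helicase of large subunit assembly (-0.77 ± 0.13, adjusted p = 0.00044).

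Of 15 factors of mitochondrial translation, 10 fell by 7 days and none rose, beside 26.9% of all genes tested called lower. TUFM, the elongation factor that brings transfer RNA to the ribosome, had 7234 and 6751 normalized counts in SB, 5586 and 6390 at 3 days, and 4074 and 3598 at 7 days (-0.87 ± 0.10, limma adjusted p = 1.71e-05). LRPPRC and SLIRP, partners that stabilise mitochondrial messenger RNA, were at -0.76 ± 0.08 and -0.62 ± 0.11 (adjusted p = 1.51e-05 and 0.000422). Of 17 mitochondrial aminoacyl-tRNA synthetases 13 fell, with MARS2, for methionine, at -0.95 ± 0.14 (adjusted p = 0.000143). Of 18 genes that copy, transcribe or process mitochondrial DNA and its RNA 12 fell, among them TOP1MT (-0.80 ± 0.12, adjusted p = 0.000178), the helicase gene C10orf2 (-0.72 ± 0.09, adjusted p = 5.45e-05) and PNPT1, an exoribonuclease (-0.69 ± 0.09, adjusted p = 4.52e-05). Of 13 mitochondrial chaperones and proteases 7 fell, with HSPD1, the chaperonin Hsp60, at -1.23 ± 0.09 (adjusted p = 3.87e-07) and TRAP1 at -1.16 ± 0.10 (adjusted p = 1.56e-06). The genes encoded in mitochondrial DNA, which the mitochondrial ribosome translates, were not analysed here.

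**Figure D3:**
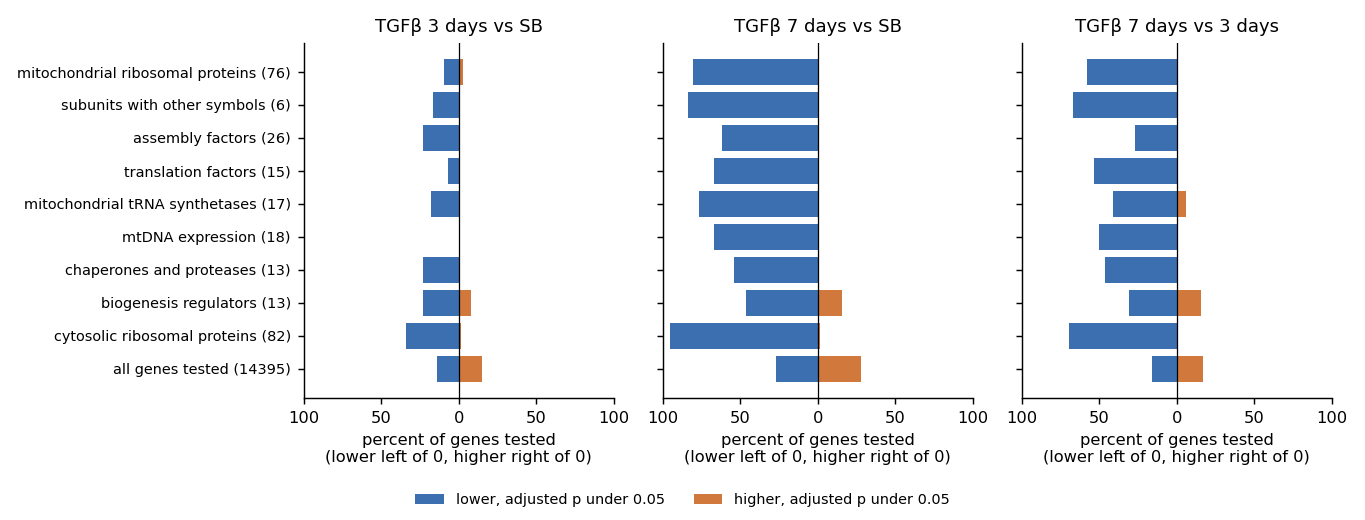
Percent of the tested genes of each list called lower (left of 0, blue) or higher (right of 0, orange) by limma in each comparison, with the number tested in brackets and all 14395 tested genes in the bottom row. At 7 days against SB, 80.3% of the mitochondrial ribosomal protein genes and 26.9% of all genes were called lower.

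Cytosolic ribosomal protein genes were the most similar group for comparison. Of 82 tested, 78 fell and 1 rose by 7 days relative to SB (median log2 fold change -0.50, beside -0.41 for the mitochondrial set). At 3 days 28 of the 82 fell, with a median of -0.22 beside -0.14, and between 3 and 7 days 57 fell, with a median of -0.32 beside -0.31. The shares of all genes tested called lower were 26.9% at 7 days against SB, 14.0% at 3 days and 16.2% between 3 and 7 days. The standard deviation of the 7-day log2 fold change was 0.24 over the mitochondrial ribosomal protein genes, beside 1.02 over all genes tested. It was not computed for the cytosolic genes, whose values ran from -1.14 to 0.38, beside -1.21 to 0.15 for the mitochondrial set. A difference between the 2 kinds of ribosome was not tested.

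**Figure D4:**
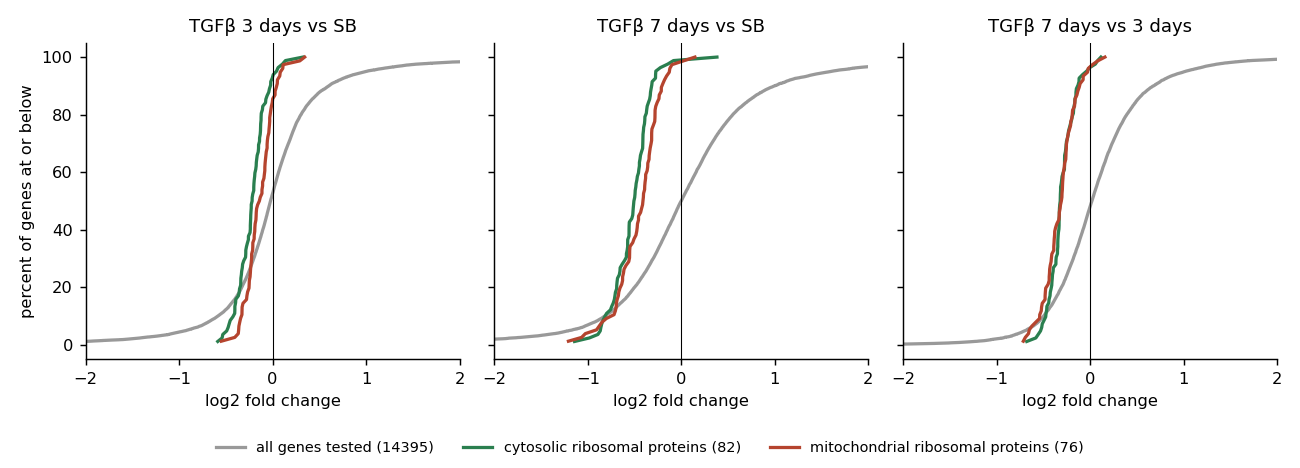
Cumulative percent of genes at or below each log2 fold change in the 3 comparisons, for all 14395 genes tested (grey), 82 cytosolic (green) and 76 mitochondrial (red) ribosomal protein genes; values beyond 2 in either direction are outside the axis. At 7 days both ribosomal curves lie left of 0, with medians of -0.50 and -0.41, while the curve of all genes is centred on 0.00.

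Many of the genes share a promoter region with a divergent neighbour. A neighbour on the opposite strand, with starts at most 990 bases apart, was annotated for 19 of the 77, and MRPL46 and MRPS11 are such a pair, with starts 63 bases apart. MRPL46, a large subunit protein, had 1526 and 1275 normalized counts in SB, 1227 and 1183 at 3 days, and 916 and 934 at 7 days (log2 fold change -0.59 ± 0.11 at 7 days, limma adjusted p = 0.000782). In the annotation, 73.4% of the MRPL46 exon bases are shared with a readthrough gene on the same strand. MRPS11, the counterpart of bacterial S11, had 1677 and 1363, 1339 and 1502, and 1308 and 1153 (-0.30 ± 0.12, adjusted p = 0.057). Both 7-day libraries were below both SB libraries for each gene of the pair. Of the 16 tested neighbours that are not members themselves, 8 fell by 7 days, with a median of -0.29. Over all genes tested, 26.9% were called lower in this comparison. MRPL47 fell while its neighbour NDUFB5, a subunit of complex I, had 5578 and 4914 normalized counts in SB and 5641 and 5857 at 7 days (0.13, adjusted p = 0.217). MRPL27 and its neighbour EME1, a nuclease gene, both fell (-0.43 and -0.92, adjusted p = 0.00427 and 7.23e-05).

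The genes most like the members over the 6 libraries were found from the mean log2 profile of the 76 genes. Among 11313 other genes with a mean of at least 100, Pearson's r was highest for TUBA1B (0.9998), and HAX1 (0.998), KANK1 (0.998) and RNASEH1-AS1 (0.998) were among the next, as a description over 6 libraries. Pearson's r does not measure the size of a change. HAX1 had log2 fold changes of -0.05 at 3 days, -0.16 at 7 days and -0.11 between them. It was called in no comparison (limma adjusted p = 0.712, 0.127 and 0.329). TUBA1B, an alpha-tubulin gene, had 67598 and 54837 normalized counts in SB, 50556 and 51263 at 3 days, and 33982 and 32742 at 7 days. With 3 groups of 2 libraries such values are common, since 16.4% of the 11313 genes had an r above 0.9, as did 45 of the members with their own mean profile.

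The GC content of the transcripts moved with the difference between libraries of the same group. Over the 76 genes, whose GC content ran from 34.8% to 66.7%, Pearson's r between GC content and the log2 ratio of the first to the second library was -0.12 for the SB pair, -0.82 for the 3-day pair and 0.86 for the 7-day pair, beside -0.17, -0.55 and 0.49 over the 13693 tested genes with a known GC content. The 18 members with a GC content of at least 55%, MRPL4, MRPL12, MRPS2, MRPS34 and MRPL38 among them, had a median 7-day log2 fold change of -0.59 against SB, beside -0.38 over 31 members between 45% and 55% and -0.36 over 27 below 45%. The median log2 ratio of the first to the second library in the 18 was -0.24 at 3 days and 0.24 at 7 days. With a loess correction of each library for GC content and transcript length, added after the data were seen, the 7-day log2 fold changes were -1.05 for MRPL4, -0.93 for MRPS2, -0.85 for MRPL12, -0.71 for MRPL38, -0.70 for MRPS34 and -0.69 for MRPL1, and each was called lower.

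**Figure D5:**
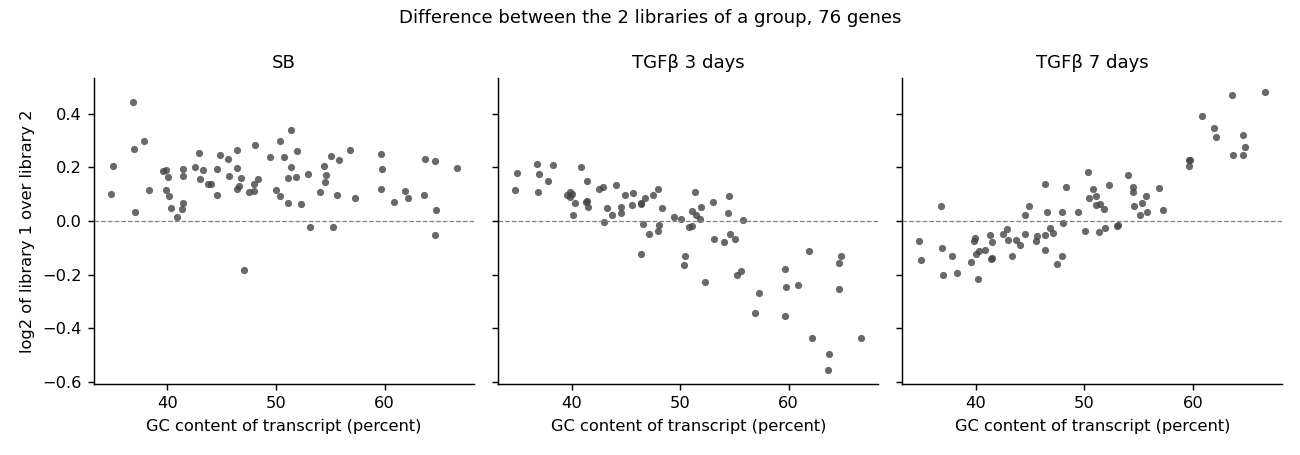
Log2 ratio of the first to the second library of each group against the GC content of the transcript, for the 76 tested genes; each point is 1 gene and the dashed line marks equal values. The points slope downward at 3 days (r = -0.82) and upward at 7 days (r = 0.86), and show little slope in SB (r = -0.12).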

How the data were processed

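The data were 6 RNA-seq libraries of H2087-LCC cells in 3 groups of 2. Per the labels the molecule was polyadenylated RNA, and per the methods of the study the libraries were made with an Illumina TruSeq RNA kit that, as background knowledge, does not mark strand. Read pairs were mapped to hg19 with STAR and counted on genes with HTSeq (version 0.6.1p1 per the labels' processing notes), keeping uniquely mapped reads. The authors normalized the counts by library size, and the deposited values, recorded under the unit score, are these normalized counts rounded to whole numbers. They are not read counts, so the depth of each library is unknown and the negative binomial test of the study was not used.

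On the scale log2(value + 1), 14395 genes whose mean reached 10 were fitted in 1 model of the 6 libraries with limma 3.58.1 in R 4.3.3 (empirical Bayes with a trend, 3 residual degrees of freedom). P-values were adjusted by Benjamini-Hochberg over all genes tested in each comparison, at 0.05. Errors are standard errors from this fit. The members, gene lists, tests and alternatives were chosen with earlier results of these data known. Members were named with values in every library by a rule: the 6 largest rises and falls called per comparison with a mean of at least 100, members called in opposite directions, the 3 highest and 3 lowest means, the MRPS18 genes, MRPL12 and MRPS36; of the other lists, up to 3 rises and 3 falls. MRPL46, MRPS11, MRPL27, CHCHD1, GABPA, YY1, NRF1, GABPB1, CDH1, NDUFB5 and EME1 were named after their values were seen. A gene among those most like the members is not reported here.

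Loci, exon overlaps, GC content and transcript length came from GENCODE on GRCh37, the build of hg19; the gene annotation used for counting is not given in the sources used here. All 77 members had a locus. Promoters came from RefSeq on GRCh38.p14. The fit was tested on simulated data for the 7-day comparison with SB, with 14386 genes tested: 180 of 200 changed genes and 7 unchanged ones were called, including 60.0% of the genes changed 1.3-fold. The changed genes all had a mean of at least 100. The simulated noise was independent between genes, with a fixed dispersion and without the GC trend between real libraries. These counts therefore do not give the error rates of the real fit. Plots were made in Python 3.11.15 with matplotlib 3.10.9.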

Additional observations from a re-analysis of the deposited data

Results flagged for a closer look

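For 9 genes the log2 fold change against SB had opposite signs at 3 and 7 days and the difference between the 2 time points was called by limma. Both time points were compared with the same SB libraries. The share of all genes tested with this pattern was not computed. The difference between 7 and 3 days was -0.54 for MRPL52 and -0.41 for MRPL15, whose rises at 3 days were called. It was -0.54 for MRPL27, -0.39 for MRPS35, -0.37 for MRPL35, -0.34 for MRPS15, -0.30 for MRPL51 and -0.28 for MRPL22, which were called lower at 7 days and whose 3-day values, between 0.00 and 0.11, did not pass the test. For MRPL33 it was -0.30, and neither its 3-day value of 0.08 nor its 7-day value of -0.21 passed the test against SB (adjusted p = 0.051 at 7 days).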

How the results depend on the processing

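The fall by 7 days against SB kept its direction in all alternatives run, with 50 to 68 genes called lower and 41 to 65 when a library was left out. In all 16 fits run, 31 genes were called lower at 7 days against SB, 11 at 7 days against 3 days and 0 at 3 days against SB. The median at 7 days was -0.28 with the GC and length correction (added after the data were seen) and between -0.50 and -0.33 without 1 library; between 3 and 7 days it was -0.22 with that correction. The counts at 3 days were not stable. Genes called higher and lower numbered 0 and 1 without the filter on low values, 0 and 15 with equal library totals, 0 and 0 without the trend, and 5 and 14 with the GC and length correction, and 1 gene was called higher with only the 4 libraries compared. Leaving out 1 library gave 0 to 2 higher, 0 to 11 lower and a median from -0.23 to -0.044; without the first library at 3 days 2 genes were called lower. Between 3 and 7 days the genes called lower numbered 25 without the filter, 16 without the trend and 17 to 29 without 1 library. With the GC and length correction 2 genes were called higher at 7 days against SB (MRPS14 and MRPS36) and 2 against 3 days (MRPS14 and MRPS6). The replicate numbers did not pair the libraries: deviations from the group means correlated over all genes tested by 0.14 between SB and 3 days, -0.10 between SB and 7 days and -0.29 between 3 and 7 days, and over the 76 members by 0.15, -0.01 and -0.82. With the replicate block 1 gene was called higher at 3 days, 58 of the 61 and 39 of the 44 falls at 7 days were kept, and the other counts stayed within 1.5 times. Against SB at 7 days, MRPS36 was at -0.026 with equal library totals and between -0.029 and 0.072 without 1 library, and MRPL15 and MRPL52 were at 0.031 and 0.0025 with the GC and length correction, none of them called. The causes were not tested. No interval for counting error could be given, since the values hold no read depth.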

Other observations

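Rows with related symbols were not counted as members. The pseudogene MRPL45P2 had 137 and 108 normalized counts in SB, 131 and 128 at 3 days, and 78 and 79 at 7 days (log2 fold change -0.63 at 7 days against SB, limma adjusted p = 0.0172). Reads shared with MRPL45 could not be told apart here. The pseudogene MRPS31P5 had 372 and 437, 392 and 369, and 391 and 432, with overlap between all groups, while MRPS31 was called lower at 7 days (-0.47, adjusted p = 0.00411). URGCP, which shares a readthrough transcript with MRPS24, had between 518 and 619 normalized counts in every library.

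PARS2, the mitochondrial synthetase for proline, was the only gene of the lists for mitochondrial tRNA synthetases, translation factors and assembly factors called higher in any comparison. It had 176 and 195 normalized counts in SB, 119 and 130 at 3 days, and 180 and 186 at 7 days, and was called lower at 3 days (-0.57, adjusted p = 0.0224) and higher at 7 days than at 3 days (0.55, adjusted p = 0.0237).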
